A study of Mus musculus with 2 samples.

Results

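The endothelial cells of the sorted tdTomato+ fraction of adult mouse skeletal muscle are described here. They were chosen by a rule on their own RNA: a barcode with at least 1500 unique molecular identifiers (UMIs, each standing for 1 captured mRNA molecule), at most 10% of them on mitochondrial genes, and at least 1 UMI of at least 3 of the 5 genes *Cdh5*, *Kdr*, *Pecam1*, *Egfl7* and *Emcn*. The rule took 87 of 14654 kept cells, which were 29 of 6087 (0.476%, exact 95% interval 0.319 to 0.684) in a library named E10-P56 and 58 of 8567 (0.677%, 0.515 to 0.874) in a library named adult pulse. All mice were C57BL/6J and carried Hic1CreERT2/CreERT2;Rosa26LSLtdTomato/tdTomato, that is, a Cre recombinase that works only with tamoxifen (TAM), placed in *Hic1*, and a red fluorescent reporter that this Cre activates for good. A cell expressing *Hic1* under TAM thus becomes tdTomato+, and so do its progeny. In the E10-P56 library, dams were given 7.5 mg TAM at embryonic day 10 and muscle of the offspring was taken at postnatal day 56. In the adult pulse library, animals of 8 weeks received 5 daily doses of 2.5 mg TAM, and the labels give postnatal day 56 for their collection too, whereas the study's text gives a later day. There was 1 library for each, so that time of labelling, time of collection and library cannot be told apart, no test between them was possible, and every interval below covers counting error only. The methods describe tibialis anterior muscles pooled from a pair of hindlimbs for the E10-P56 library, and a serial sort that excluded cells binding antibodies to CD45, CD117, CD31, CD11b, F4/80 and Ter119. CD31 is the product of *Pecam1*, a gene of the rule, so the E10-P56 cells described here were found after a sort against endothelium. The study takes the adult pulse library from earlier work, so this is stated for E10-P56 only. The study's methods set aside a small *Pecam1*+ cluster as contaminating cells.

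Endothelial cells line every blood vessel. VE-cadherin, encoded by *Cdh5*, and CD31 join them to each other, while the vascular endothelial growth factor (VEGF) receptors *Kdr* and *Flt1* and the angiopoietin receptor *Tek* pass on growth and survival signals from the surrounding tissue. In muscle most of them form capillaries, which move fatty acids from the blood to the fibres, and each capillary is wrapped by pericytes, mural cells that sit within its basement membrane. Arteries and veins carry coats of smooth muscle in place of pericytes, and their endothelium is known by other genes.

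Sequencing gave 67460919 UMIs for 8236 barcodes (E10-P56) and 69153173 UMIs for 9195 barcodes (adult pulse). The kept cells had a median of 7648 and 7344 UMIs. No barcode of an endothelial cell was also a kept barcode of the other library, among 11 barcodes that the libraries shared. Levels are given in UMIs per 1000000 (CPM), the UMIs of a gene or list summed over a set of cells and scaled to all UMIs of those cells, with exact 95% Poisson intervals in parentheses. The reads came from the 3′ ends of transcripts and 1 UMI stands for 1 molecule whatever its length, so a gene called the most abundant of a list is so in UMIs, and lists of different genes are not ranked.

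In the E10-P56 library, 5696 kept cells had a UMI of none of the 5 genes, 347 of 1, 15 of 2, 6 of 3, 10 of 4 and 13 of all 5. For the adult pulse the numbers were 7696, 789, 24, 4, 11 and 43. A list of 20 further endothelial genes that the rule did not use, among them *Flt1*, *Ptprb*, *Tie1* and *Sox18*, stood at 433 CPM in E10-P56 cells with none of the 5 genes, 320 with 1, 598 in the 15 cells just outside the threshold, 3692 in the 6 just inside it, 5396 with 4 genes and 9716 with all 5. In the adult pulse library it stood at 659, 620, 348, 1823, 9201 and 8634 CPM in the same order. The level was thus lower below the threshold than above it in both libraries, but it did not rise with each further gene. The 39 cells just outside, with 2 genes, lay in no case in the cluster whose leading genes were endothelial. That cluster, formed without these lists, was led by *Egfl7*, *Gpihbp1*, *Aqp1*, *Cdh5* and *Ptprb*, and its 70 cells, 20 (E10-P56) and 50 (adult pulse), were all chosen by the rule. The other 17 lay elsewhere. In E10-P56, 5 lay with pericyte-like, 3 with vascular smooth muscle cell (VSMC)-like and 1 with Schwann-like cells, and in the adult pulse 6 lay with fibroblast-like cells, 1 with cells like smooth muscle cell progenitors and 1 with Schwann-like cells. The names of these populations were rebuilt from marker genes and can place cells differently from the study.

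The endothelial cells differed in how much RNA of another cell type they held. Each cell's summed CPM of pericyte, VSMC, fibroblast and Schwann cell markers was set against the level of the same list in cells of that name in its own library, and a cell at or above 10% of it was called a carrier of that RNA. The limit was chosen after the values were seen. At 20% every cell kept its class, and at 5% the number with endothelial RNA alone was 10 in place of 12 (E10-P56) and 38 in place of 46 (adult pulse). At 5% the fibroblast carriers were 3 in place of 1 and 15 in place of 9, and the adult pulse mural carriers 4 in place of 2, whereas those of E10-P56 remained 15. In E10-P56, 12 cells had endothelial RNA alone, 15 carried mural RNA, 12 of them mostly pericyte and 3 mostly smooth muscle RNA, 1 carried fibroblast RNA and 1 Schwann cell RNA. The mural carriers held their mural markers at 41.4% to 110.5% of the level of such cells. In the adult pulse, 46 had endothelial RNA alone, 2 carried mural, 9 fibroblast and 1 Schwann cell RNA. Where a cell was past the limit for several types, Schwann cell RNA was taken first and mural RNA next. This was so for both carriers of Schwann cell RNA, whose fibroblast markers were at 35.5% and 80.8%, and for 1 E10-P56 mural carrier, with 22.5%. Mural carriers were thus the largest class in E10-P56 and among the smallest in the adult pulse. Pericyte-like cells were about as many in both libraries, 426 and 397. VSMC-like cells were 215 (E10-P56) and 26 (adult pulse), and smooth muscle progenitor-like cells 262 and 136. Set against pericyte-like, VSMC-like and smooth muscle progenitor-like cells, the E10-P56 mural carriers made up 15 of 918 (1.63%, exact 95% interval 0.917 to 2.68) of such cells and carriers together, and those of the adult pulse 2 of 561 (0.357%, 0.0432 to 1.28). The adult pulse fibroblast carriers made up 9 of 7216 (0.125%, 0.0571 to 0.237) and the E10-P56 fibroblast carrier 1 of 4217 (0.0237%, 0.000600 to 0.132). The intervals of the libraries overlapped for both kinds of carrier.

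**Figure D1:**
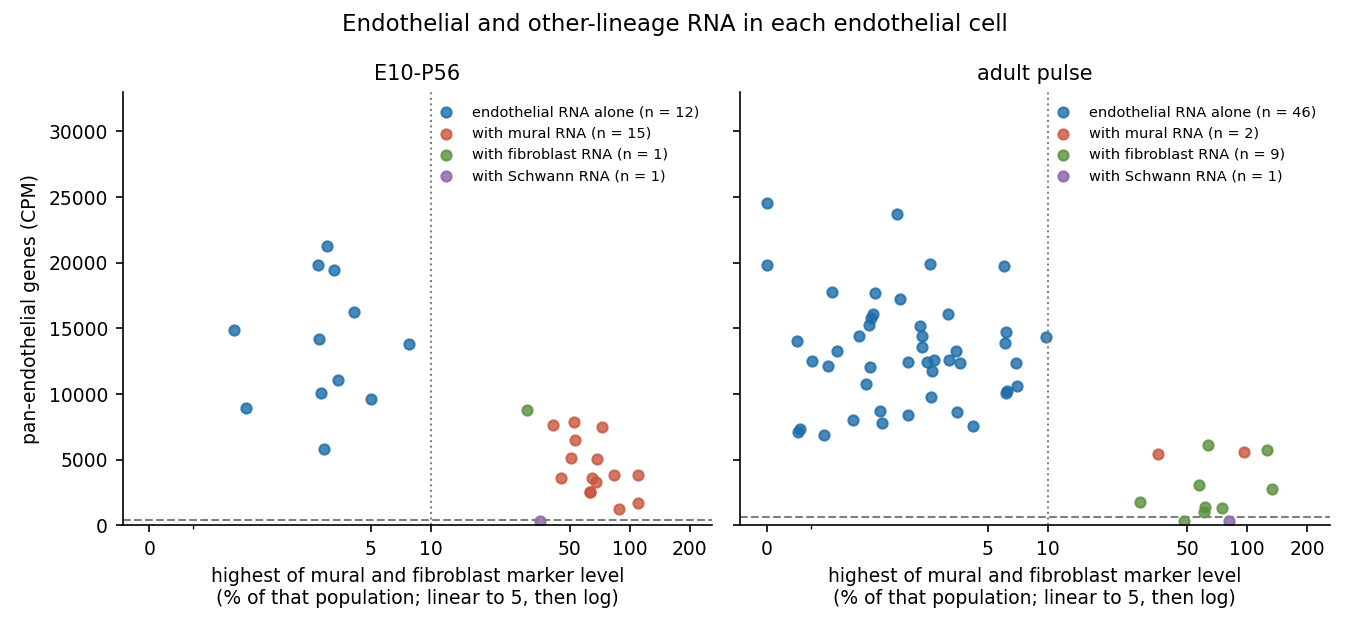
Level of 20 endothelial genes outside the rule (CPM, vertical) against the higher of the mural and fibroblast marker levels (percent of the level in cells of that type, linear to 5 and then log, horizontal) for each endothelial cell, by library and class. The dotted line is the 10% limit, the dashed line the level of other kept cells, and the 12 and 46 cells with endothelial RNA alone lie between 5793 and 24520 CPM.

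The carriers held more UMIs. In E10-P56 the median was 2615 UMIs for cells with endothelial RNA alone, 5416 for carriers of pericyte RNA and 9174 for those of smooth muscle RNA, against 3130 in pericyte-like and 7702 in VSMC-like cells. For the adult pulse it was 2813 for cells with endothelial RNA alone, 11137 for fibroblast carriers and 11382 for mural carriers, against 7650 in fibroblast-like cells. The endothelial RNA of the carriers was at a lower level. The 20 genes outside the rule reached 13784 CPM (12544 to 15114) in E10-P56 cells with endothelial RNA alone, ranging from 5793 to 21256 between cells, and 4507 in mural carriers. Adult pulse cells reached 12483 CPM (11922 to 13063), from 6901 to 24520 between cells, against 2440 in fibroblast carriers, whose cells ranged from 322 to 6080. Among kept cells outside the rule the level was 426 and 653 CPM, and 99% of these cells lay below 1778 and 2136 CPM. All 12 and all 46 cells with endothelial RNA alone were above that mark, as were 13 of 15 E10-P56 mural carriers and both of the adult pulse. Of the 9 adult pulse fibroblast carriers 4 were above it, and neither Schwann cell RNA carrier was. In all, 9 of the 87 cells were not above that mark, and 3, both Schwann cell RNA carriers and 1 fibroblast carrier, were even below the level of other kept cells. The name endothelial is thus not borne out by these genes in those cells, which are counted by the rule alone.

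**Figure D2:**
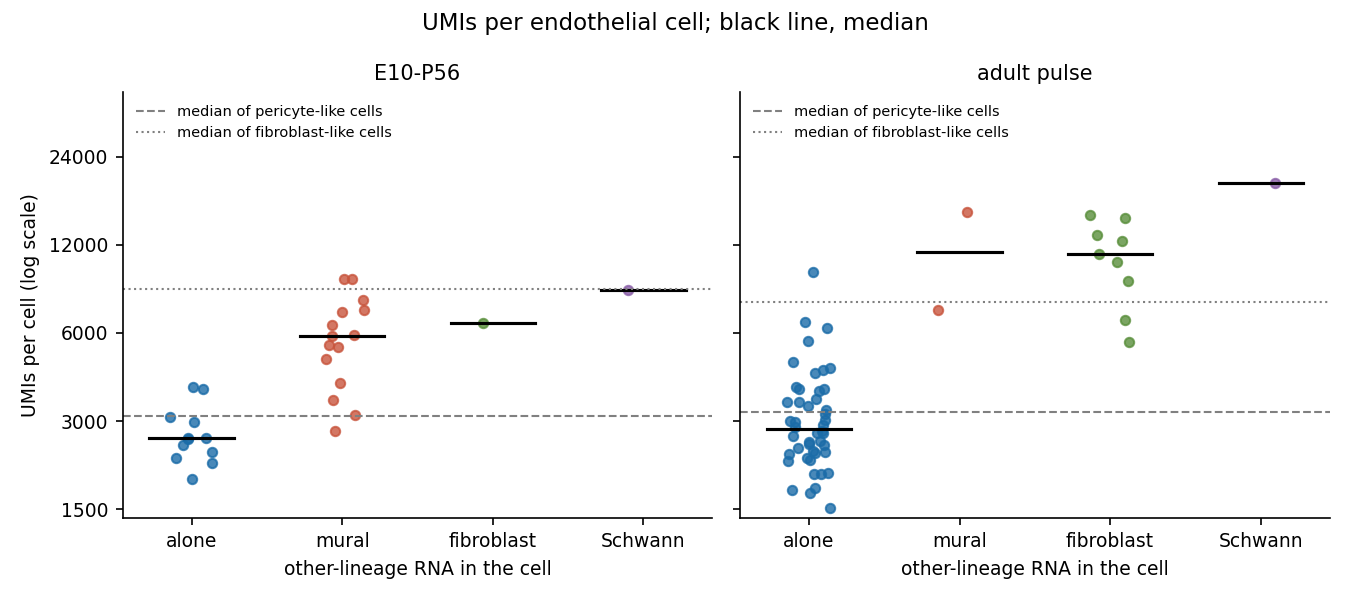
UMIs per endothelial cell on a log axis, by class and library, with class medians in black. Cells with endothelial RNA alone have medians of 2615 (E10-P56) and 2813 (adult pulse), near the dashed line of pericyte-like cells, and the mural and fibroblast carriers have higher medians.

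Depth moved with these classes. When every cell was randomly thinned to 1500 UMIs, the rule still took 12 of 12 and 43 of 46 cells with endothelial RNA alone, but 6 of 15 E10-P56 mural carriers and 1 of 9 adult pulse fibroblast carriers. The Schwann cell RNA carriers had 3 of the 5 genes each and were not taken, and Schwann-like cells outside the rule held *Cdh5* at 58.5 (E10-P56) and 146 CPM (adult pulse). A doublet caller based on simulated doublets marked none of the 87 cells. It marked 15 and 4 cells in all, too few for a working threshold, so its scores were used only as ranks. Among the 5% of cells with the highest scores were 0 of 12 and 0 of 46 cells with endothelial RNA alone, 2 of 15 E10-P56 mural carriers, both adult pulse mural carriers, 4 of 9 adult pulse fibroblast carriers and the adult pulse Schwann cell RNA carrier, but neither the fibroblast nor the Schwann cell RNA carrier of E10-P56. Whether a carrier was 2 cells in 1 droplet, a cell with adherent fragments or a cell expressing both sets of genes was not tested.

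Pericyte RNA was read from 3 genes that took no part in these classes: *Abcc9* and *Kcnj8*, which encode the subunits of a potassium channel of mural cells and lie side by side on chromosome 6 (142587862 to 142702315 and 142564837 to 142571614 in GRCm38), and *Art3* (chromosome 5, 92331827 to 92414628), a surface protein of the ADP-ribosyltransferase family. Their summed level was 1681 CPM (1469 to 1913) in the 29 endothelial cells of E10-P56 and 104 (69.9 to 148) in the 58 of the adult pulse, against 4877 and 5947 in pericyte-like cells. At least 1 UMI of the 3 genes was found in 16 of 29 (55.2%) and 13 of 58 (22.4%) cells. In E10-P56 this RNA was held by the carriers. None of the 32864 UMIs of the 12 cells with endothelial RNA alone was of these genes, an interval of 0 to 112 CPM, whereas the 12 carriers of pericyte RNA reached 3443 CPM (3002 to 3930), with a median of 2853 and a range of 1302 to 6416 between cells. The groups did not overlap, and the level of the carriers was below that of pericyte-like cells. Other pericyte genes set these groups, at a limit chosen after the values were seen. The lack of overlap is thus a description of the split and no separate evidence for it. The 3 carriers of smooth muscle RNA stood at 165 CPM.

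In the adult pulse the 46 cells with endothelial RNA alone held 8 UMIs of the 3 genes in 7 cells, 53.7 CPM (23.2 to 106). Kept cells outside the rule stood at 173 CPM and fibroblast-like cells, which are not mural, at 28.2. The 2 mural carriers reached 615 CPM (336 to 1032), but 10 of these UMIs were *Art3* in 1 cell. *Art3* was also the only gene of the 3 found in the Schwann cell RNA carriers. They held 5 (E10-P56) and 4 UMIs (adult pulse) of it, with pericyte markers at 1.02% and 0.514%. *Art3* alone thus need not stand for pericyte RNA. The pericyte list itself set the classes, so its values follow from that choice. *Rgs5*, its most abundant gene and a regulator of G protein signalling in pericytes, reached 9616 CPM in E10-P56 mural carriers and 12564 in those of the adult pulse, against 122 (4 UMIs in 3 of 12 cells) and 208 (31 UMIs in 13 of 46 cells) in cells with endothelial RNA alone. Of the 8 genes of that list, *Higd1b*, *Cox4i2*, *Cspg4*, *Vtn* and *Pdgfrb*, the receptor through which endothelium recruits pericytes, had 0 UMIs in cells with endothelial RNA alone of either library. The whole list stood there at 152 (E10-P56) and 222 CPM (adult pulse), against 23214 and 19946 in pericyte-like cells.

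Fibroblast RNA was low but present in cells with endothelial RNA alone, at 1582 (E10-P56) and 1624 CPM (adult pulse) for 10 markers. The highest cell was at 7.81% and 9.79% of the fibroblast-like level, the class being defined by less than 10%. Its most abundant gene there was *Gsn*, at 791 and 745 CPM, which encodes the actin-severing protein gelsolin and is not confined to fibroblasts, and the decorin gene *Dcn* followed with 274 and 470. *Pdgfra*, the receptor that defines muscle fibroblasts, had 0 UMIs in the 12 E10-P56 cells and 2 in the 46 adult pulse cells. Fibroblast carriers of the adult pulse held these markers at 39455 CPM, from 16593 to 76784, and had *Pdgfra* in all 9 cells, at 305 CPM against 583 in fibroblast-like cells. The 7 immune markers had 0 UMIs in cells with endothelial RNA alone of either library, and the 5 red blood cell markers 0 and 1. Skeletal muscle markers reached 213 and 175 CPM, above the 12.4 and 61.0 of other cells, with the fast myosin light chain gene *Mylpf* as the most abundant at 152 (E10-P56) and 60.4 CPM (adult pulse). The part of free RNA in these low levels was not tested.

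The reporter transcript was present in the endothelial cells that were not carriers. In E10-P56, tdTomato stood at 1461 CPM (1077 to 1936) in cells with endothelial RNA alone and was found in 10 of 12, with values from 0 to 3811 and a median of 1366 between cells. Adult pulse cells stood at 2510 CPM (2262 to 2778), and the transcript was found in 45 of 46, from 0 to 6870 with a median of 2322. Mural carriers held 2265 (E10-P56) and 2240 CPM (adult pulse). The level in cells with endothelial RNA alone thus lay between that of fibroblast-like cells, 1138 and 2038 CPM, and that of pericyte-like cells, 2250 and 3153. In E10-P56 its interval holds the fibroblast-like level, so the depth did not allow a difference from those cells to be seen. With every cell thinned to 1500 UMIs, 75.0% (exact 95% interval 42.8 to 94.5) of the E10-P56 cells with endothelial RNA alone and 91.3% (79.2 to 97.6) of those of the adult pulse had a tdTomato UMI, against 91.3% and 96.7% of pericyte-like and 74.4% and 91.3% of fibroblast-like cells. The lowest shares among named populations of comparison were those of Schwann-like cells, 51.1% and 65.0%. The files held no tdTomato-negative population that would give the level of free reporter RNA, so its part was not tested.

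**Figure D3:**
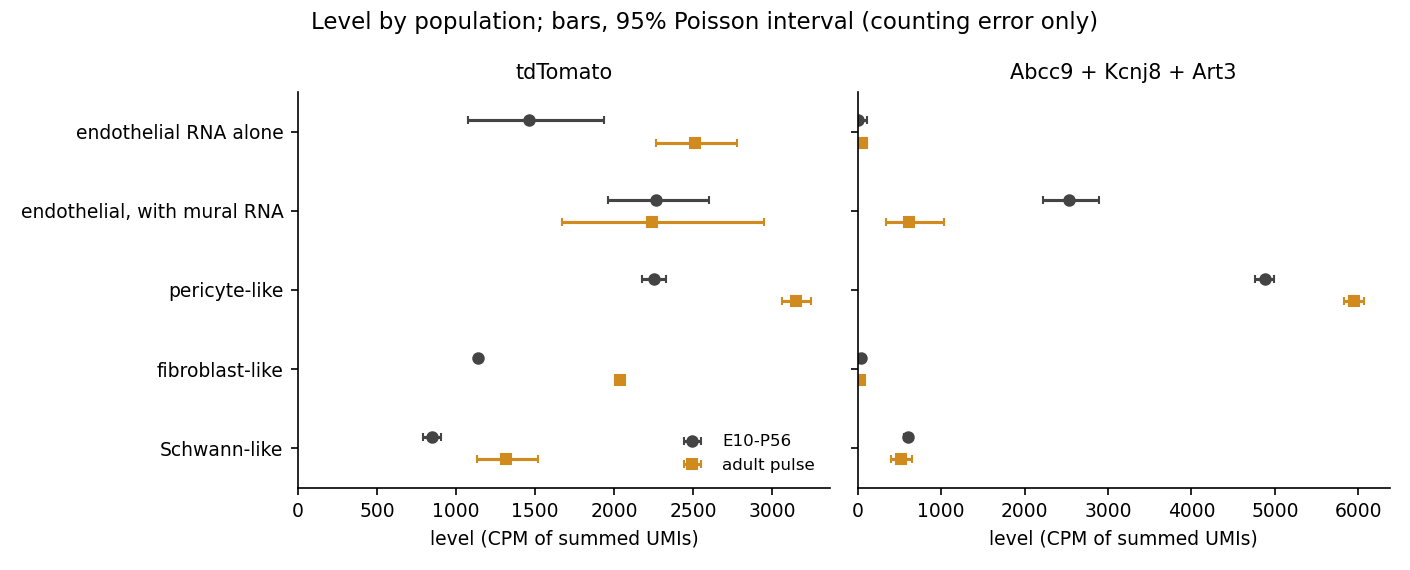
Level of tdTomato (left) and summed level of *Abcc9*, *Kcnj8* and *Art3* (right), in CPM with exact 95% Poisson intervals, in endothelial cells by class and in named populations of each library. Cells with endothelial RNA alone have tdTomato at 1461 and 2510 CPM and the pericyte genes at 0 and 53.7 CPM.

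*Hic1* itself, the gene at which Cre is placed (chromosome 11, 75164565 to 75169519), was scarcely seen in them. The 12 E10-P56 cells with endothelial RNA alone held 1 UMI of it (30.4 CPM, 0.770 to 170) and the 46 of the adult pulse 0 of 149004 UMIs, an interval of 0 to 24.8 CPM. Fibroblast-like cells stood at 48.1 and 43.9 CPM and pericyte-like cells at 201 and 138 CPM. The adult pulse interval lies below both of its comparison levels, whereas in E10-P56 the depth did not allow a difference from fibroblast-like cells to be seen. No endothelial cell had a UMI of CreERT2. *Pecam1* encodes a target of the sort described for E10-P56. Its RNA stood at 700 CPM in 10 of 12 cells and 1275 CPM in 44 of 46 cells with endothelial RNA alone. In other kept cells it stood at 0.593 and 9.59 CPM. *Pecam1* is a gene of the rule, so this is a description of the members.

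Apart from the 5 rule genes, 197 of 1310 genes with at least 20 UMIs in the E10-P56 endothelial cells (15%) were at least 4-fold higher there than in the other kept cells, and in the adult pulse 273 of 2711 (10.1%), with 5 CPM added to both levels. These shares are the background for the lists below, in which only genes with that number of UMIs were counted as able to pass. Such a gene had them in the endothelial cells, so the list counts lean toward higher genes. The shares also take in RNA of the carriers. In E10-P56, *Rgs4* (9.05-fold) and *Kcnj8* (10.4-fold) passed with 1 and 0 UMIs in cells with endothelial RNA alone. In the adult pulse *Gm26870* (37.0-fold) passed with all its UMIs in 1 cell. The endothelial cells held 135669 UMIs in E10-P56 against 289649, so fewer genes of a list could pass there and the counts of the libraries are not set against each other. The cells were chosen by endothelial RNA, so the direction of endothelial genes follows from the choice and is given as a description. *Gpihbp1* (chromosome 15, 75596628 to 75599481), which carries lipoprotein lipase to the capillary lumen, had the largest ratio in E10-P56, 162-fold, and 193-fold in the adult pulse. *Aqp1*, a water channel of the capillary wall, had the largest in the adult pulse, 222-fold, and 97.8-fold in E10-P56. The others among the 10 largest in both libraries were *Tspan13*, a tetraspanin, *Ptprb*, the phosphatase that restrains VE-cadherin and TEK signalling, *Flt1*, and *Timp4*, an inhibitor of metalloproteinases, with ratios from 81.1 to 165. In E10-P56 they were joined by *Podxl* (90.4-fold), a sialomucin of the luminal face, *Sox18* (80.5-fold), a transcription factor of vessel growth, *Cd300lg* (76.9-fold) and *Adgrl4* (73.1-fold), an adhesion receptor. Joining them in the adult pulse were the fatty acid carrier *Fabp4* (178-fold), the sphingosine phosphate receptor *S1pr1* (107-fold), *Cd93* (105-fold) and *Ctla2a* (92.8-fold).

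The levels of these genes were higher again once carriers were left out. *Flt1* reached 2526 (E10-P56) and 1624 CPM (adult pulse) in cells with endothelial RNA alone, against 1283 and 1005 over all endothelial cells. *Aqp1* reached 5660 and 5194 CPM, and *Gpihbp1* 1978 and 1812. Of the 20 endothelial genes outside the rule, 14 of 16 with enough UMIs (E10-P56) and 16 of 19 (adult pulse) were at least 4-fold higher in endothelial cells. Their median log2 ratio was 5.45 and 5.29, against 0.58 and 0.31 over all 1310 and 2711 genes with enough UMIs. No gene of any list was 4-fold lower with at least 20 UMIs in endothelial cells. Over all genes with enough UMIs the share was also small, 14 of 1310 (1.07%) in E10-P56 and 4 of 2711 (0.148%) in the adult pulse. The minimum of UMIs leaves little room for lower genes, so this is not a result about the lists.

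Of the 3 genes of that list with the most UMIs, *Flt1*, *Ptprb* and *Ramp2*, only *Flt1* had an entry in the promoter table. Its promoter is shown because ETS factors, which bind the letters GGAA, drive many endothelial genes and were present in these cells. The sequence runs from 250 bases before the start of the gene to 50 after it in RefSeq on GRCm38.p6, chr5:147725962-147726261 on the minus strand, with the letters AGGAAG in capitals.
*Flt1*: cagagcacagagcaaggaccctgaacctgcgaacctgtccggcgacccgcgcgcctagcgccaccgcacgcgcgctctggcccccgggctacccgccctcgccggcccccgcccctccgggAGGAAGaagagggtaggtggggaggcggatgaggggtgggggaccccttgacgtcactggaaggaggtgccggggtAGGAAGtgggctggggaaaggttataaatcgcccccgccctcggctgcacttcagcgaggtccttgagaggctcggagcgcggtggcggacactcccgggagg
AGGAAG was found 2 times in it on either strand. Over the 127 genes at least 4-fold higher in the endothelial cells of both libraries, 86 had a promoter in the table and 46 of these (53.5%) held AGGAAG on either strand. The rule genes were not left out of this set. Over all 27025 genes of the table, expressed in these cells or not, the share was 38.4%. The set comes from cells chosen by endothelial RNA, so the shares are a description only. The letters AGATAA, bound by GATA factors, were found in 8.14% against 12.7%, and AACAAT, bound by SOX factors, in 10.5% against 12.2%. A match is a description of the letters and not of a bound site.

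Genes of capillaries were found in each of the cells with endothelial RNA alone. A list of 14 capillary genes summed to 41961 CPM (39775 to 44235) in E10-P56 cells with endothelial RNA alone, from 24583 to 66351 between cells, and to 33308 CPM (32388 to 34248), from 7206 to 69627, in the adult pulse. Other kept cells held 669 and 330 CPM. *Fabp4* made up more than any other gene, with 23521 and 17577 CPM, and was found in every one of these cells. *Cd36*, the fatty acid receptor, stood at 2708 and 2718 CPM, but pericyte-like cells also held it at 951 and 1244 CPM. *Timp4* stood at 2739 and 1711 CPM, and *Tcf15*, a transcription factor of fatty acid uptake in muscle endothelium, at 1339 and 993. Of the 14 genes, 9 of 11 with enough UMIs were at least 4-fold higher in endothelial than in other cells of E10-P56, and 12 of 13 were in the adult pulse. *Car4*, the carbonic anhydrase of the capillary lumen, was lower in count, with 396 CPM in 5 of 12 cells and 235 CPM in 18 of 46.

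**Figure D4:**
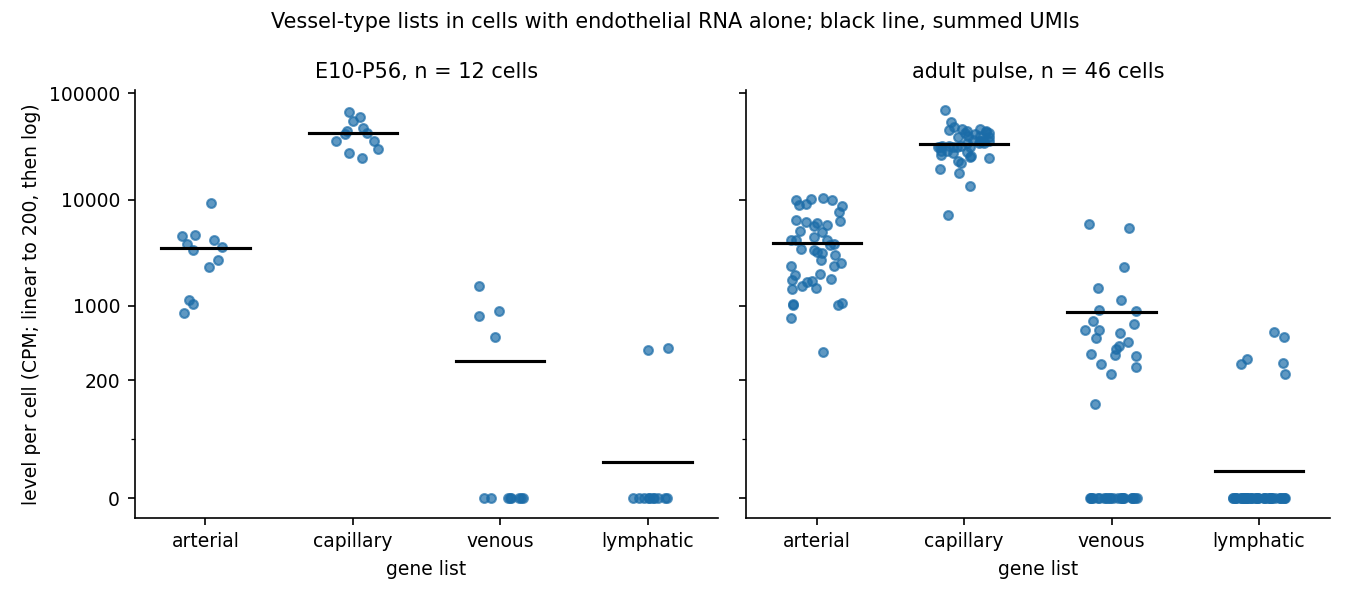
Level per cell in CPM, linear to 200 and then log, of the arterial, capillary, venous and lymphatic lists in the 12 E10-P56 and 46 adult pulse cells with endothelial RNA alone, with the level of the summed UMIs as a black line. The capillary list lies between 24583 and 66351 CPM (E10-P56) and between 7206 and 69627 CPM (adult pulse), the lists hold different genes and are not ranked, and 2 adult pulse cells stand apart in the venous list.

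The arterial list of 14 genes stood at 3469 (2861 to 4167) for E10-P56 cells and 3879 CPM (3569 to 4209) for adult pulse cells. Most of it was *Cxcl12*, a chemokine that arterial and other cells make, with 2739 and 2577 CPM, and pericyte-like cells held *Cxcl12* at about that level, 2550 and 2130 CPM. Of the 14 genes 2 had enough UMIs in the E10-P56 endothelial cells and 1 of them, *Cxcl12*, was at least 4-fold higher there. In the adult pulse 8 had enough, and *Cxcl12*, *Sox17*, *Stmn2*, *Dll4*, *Efnb2* and *Hey1* were higher. With fewer UMIs than the minimum, *Sox17* stood at 88.5 CPM (45.7 to 154) over all E10-P56 endothelial cells against 0.112 in other kept cells, *Stmn2* at 133 against 6.29 and *Efnb2* at 88.5 against 14.3. *Sox17*, a transcription factor of arterial identity, stood at 336 CPM in 24 of 46 adult pulse cells and at 152 in 4 of 12 E10-P56 cells. The arterial genes other than *Cxcl12* had 194 UMIs in 40 of the 46 adult pulse cells, and 91 of them lay in 4 cells, which held 15 to 33 each. The next cell held 9. Depth differed between cells, so the order by level was not the same, 8563, 6119, 5020 and 3357 CPM in these 4 against 3525 and 3313 in 2 shallower cells with 7 and 5 UMIs. Together the 4 had 18 UMIs of *Sox17*, 18 of *Stmn2*, 9 of *Hey1*, a target of Notch in arteries, 8 of *Efnb2*, the arterial ephrin, and 6 of the gap junction gene *Gja4*. All arterial genes other than *Cxcl12* came to 5677 CPM in them, against 774.6 in the other 42. They had no *Aqp1* UMI in 16029 UMIs, whereas 40 of the other 42 cells had *Aqp1*, at 5821 CPM. *Fabp4* was still at 18654 CPM in them. These 4 cells were picked for their arterial UMIs, so their arterial values follow from the choice. The 3525 CPM cell had 1 UMI of *Aqp1* and the 3313 CPM cell 21. In E10-P56 these genes had 24 UMIs in 8 of 12 cells. The highest cell held 8, 7 of them *Stmn2*, which was 3218 CPM, near the lowest of the 4 adult pulse cells, and it had 1 UMI of *Aqp1*. *Gja5*, a gap junction gene of larger arteries, had 0 UMIs in cells with endothelial RNA alone of either library.

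Venous genes were rare. The list of 14 reached 304 CPM (146 to 560) in E10-P56, from 10 UMIs in 4 cells, an interval that holds the 433 of other kept cells, and 886 CPM (741 to 1051) in the adult pulse, where 23 cells had a UMI. A pair of adult pulse cells held most of them, 53 and 39 UMIs, and the next cell had 7. Without these 2 cells, which were picked for these UMIs, the list fell to 301 CPM. The pair held 30 of the 35 UMIs of *Plvap*, which forms the diaphragms of fenestrae and caveolae, and 18 of the 21 of *Lrg1*, a secreted glycoprotein, along with *Vwf*, *Selp* and *Vcam1*, which encode proteins that bind platelets and leukocytes. They also held 44 UMIs of *Aqp1*. *Ackr1*, the chemokine receptor that marks post-capillary venules, had 0 UMIs in cells with endothelial RNA alone, as did the E-selectin gene *Sele*. *Nr2f2*, the transcription factor of venous identity, was at 60.9 and 73.8 CPM there, against 146 and 69.8 in other kept cells.

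Lymphatic genes were at or near 0. *Prox1* and *Lyve1*, the defining genes of lymphatic endothelium, had 0 UMIs in cells with endothelial RNA alone of either library, and the list of 8 genes held 2 (E10-P56) and 7 UMIs (adult pulse), all but 1 of them *Flt4*. Of the 10 genes of sprouting tip cells 3 had enough UMIs in adult pulse endothelial cells, of which *Trp53i11* and *Apln* were at least 4-fold higher, and 1 had enough in those of E10-P56 and was not. *Apln*, the ligand that tip cells make, was counted 19 times in 1 adult pulse cell and 1 time in all others. *Esm1*, another tip cell gene, had 0 (E10-P56) and 6 UMIs (adult pulse) there. The 6 cycling markers stood at 30.4 and 6.71 CPM.

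Signalling and barrier genes were described by list. Of 11 genes of VEGF, TIE and BMP signalling outside the rule, 9 had enough UMIs in each library, of which 7 were at least 4-fold higher in E10-P56 endothelial cells and 6 in the adult pulse. The VEGF co-receptor *Nrp1* stood at 2221 CPM (1741 to 2793) and 1731 (1527 to 1956) in cells with endothelial RNA alone, *S1pr1* at 791 and 1094, the TGF-beta co-receptor *Eng* at 669 and 718, and the orphan receptor *Tie1* at 730 and 403. *Tek*, the angiopoietin receptor, did not pass 4-fold and stood at 183 and 248 CPM against 57.9 and 114 in other kept cells. Of 11 Notch genes, 2 of 4 with enough UMIs (E10-P56) and 4 of 7 (adult pulse) passed. Those of E10-P56 were *Notch1*, the endothelial receptor, and *Notch3*, the receptor of mural cells. *Notch3* was at 516 CPM over all E10-P56 endothelial cells but had 1 UMI in the 12 with endothelial RNA alone and 0 in the 46 of the adult pulse. *Notch1* was at 213 and 342 CPM in these cells, and the Notch ligand *Dll4* at 60.9 and 175.

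Of 10 junction genes outside the rule, 5 of 6 with enough UMIs (E10-P56) and 6 of 7 (adult pulse) passed 4-fold. The tight junction gene *Cldn5*, which passed in the adult pulse, had 16 UMIs in E10-P56, under the minimum, at 118 CPM against 0.0962 in other kept cells. *Esam* stood at 822 and 846 CPM and *Jam2* at 1156 and 698 in cells with endothelial RNA alone. Of 15 transcription factor genes, 5 of 8 and 8 of 11 passed. Besides *Tcf15* these included the ETS factors *Fli1* (943 and 490 CPM), *Ets1* (548 and 477 CPM) and *Elk3* (578 and 336 CPM). *Klf2*, which blood flow induces in endothelium, was at 1369 and 1101 CPM but also at 233 and 398 in other kept cells. Of 10 genes of lipid uptake 7 had enough UMIs in each library, and the same 5 passed in both, *Fabp4*, *Cd36*, *Gpihbp1*, *Fabp5* and *Tcf15*. The carrier *Fabp5* stood at 1095 and 1148 CPM. Of 10 genes of vessel tone, 4 of 4 and 5 of 7 passed, led by the caveolin genes *Cav1* (2799 and 3309 CPM) and *Cav2* (1248 and 980 CPM). The guanylate cyclase subunit gene *Gucy1b1*, a target of nitric oxide in mural cells, passed in E10-P56 with 310 CPM over all endothelial cells and had 0 UMIs in those with endothelial RNA alone. The nitric oxide synthase gene *Nos3* was at 60.9 CPM in 2 of 12 cells and 134 CPM in 13 of 46. Of 9 genes of clotting and its control, 0 of 2 passed in E10-P56 and 1 of 4, *Vwf*, in the adult pulse. *Thbd*, the thrombin receptor of the vessel wall, stood at 456 and 121 CPM.

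Between the libraries, the 5 genes with the largest ratios toward E10-P56 over all endothelial cells were *Rgs4* (545 against 3.45 CPM), *Kcnj8* (700 against 6.91), *Abcc9* (700 against 20.7), *Vtn* (627 against 31.1) and *Myh11* (1216 against 82.9), all expressed by mural cells. Cells with endothelial RNA alone held 1 UMI of *Rgs4* and 2 of *Myh11* (E10-P56) or 0 and 2 (adult pulse). Toward the adult pulse the 5 genes were the complement gene *C4b* (0 against 373 CPM), the pentraxin gene *Ptx3* (0 against 242), *Gm26870* (0 against 228), the interferon-induced gene *Ifit1* (0 against 207) and the chemokine gene *Cxcl14* (22.1 against 867). All 66 *Gm26870* UMIs, 68 of 70 *Ptx3* UMIs, 131 of 251 *Cxcl14* UMIs and 53 of 108 *C4b* UMIs came from 1 cell each, whereas *Ifit1* was found in 23 of 58 cells. Cells with endothelial RNA alone held 0 of the *Gm26870* UMIs, 2 of *Ptx3*, 3 of *Cxcl14* and 1 of *C4b*, but 51 of the 60 of *Ifit1*.

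Cells with endothelial RNA alone can be set side by side without that mural RNA. The E10-P56 cells held 32864 UMIs against 149004, so that 20 UMIs were 609 CPM there. Among the 260 genes at or above that level in either set, 2 (0.769%) were at least 4-fold higher in E10-P56, *Ankrd11* and *Col3a1*, and 4 (1.54%) in the adult pulse, *Cldn5*, *Iigp1*, *Timp3* and *Lars2*. With 20 UMIs in either set as the minimum, which lets in genes of lower level through the deeper adult pulse set, the numbers were 2 (0.147%) and 72 (5.28%) of 1364 genes. *Ifit1* was at 342 CPM (255 to 450) in 19 of 46 adult pulse cells and at 0 (0 to 112) in the 12 of E10-P56. A list of 20 genes that interferon induces was drawn up after these values had been seen, and is a description only.

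The interferon list stood at 4839 CPM (4492 to 5205) in adult pulse cells with endothelial RNA alone, with a median of 3018 and a range of 395 to 19976 between cells. In E10-P56 it stood at 1035 CPM (717 to 1446), with a median of 762 and a range of 0 to 4023. The cells overlapped, but 33 of 46 were above 2000 CPM in the adult pulse and 1 of 12 in E10-P56. Of the 20 genes 18 had the higher level in the adult pulse, against 57.2% of 10308 genes with a UMI in either set, but 8 of the 20 had 0 UMIs in the shallower E10-P56 set. All 12 with a UMI in E10-P56 were higher, against 32.3% of 6512 such genes. The list was chosen with *Ifit1* in view, so these counts are no support for it. The immunity-related GTPase gene *Iigp1* was at 718 CPM (588 to 868) against 91.3 in E10-P56, *Isg15*, a ubiquitin-like modifier, at 396 against 91.3, and *Rsad2*, the antiviral enzyme viperin, at 255 against 0. *Bst2*, the membrane protein tetherin, was high in both, 1007 CPM (852 to 1181) against 517 (301 to 828). *Oas1a* and *Mx1* had 0 UMIs in these cells of either library. In other kept cells the list stood at 475 CPM in the adult pulse against 524 in E10-P56, and in fibroblast-like cells at 496 against 550. Pericyte-like cells went the other way, with 415 CPM (383 to 449) against 278 (252 to 305), as did Schwann-like cells, with 306 (222 to 411) against 196 (170 to 225). VSMC-like cells were lower in the adult pulse, with 170.2 CPM (113.1 to 246.0) against 235.1 (214.2 to 257.5), intervals that overlapped. The 2 adult pulse mural carriers held 2065 CPM (1517 to 2746) and the 9 fibroblast carriers 1901 (1638 to 2194). In E10-P56 the 15 mural carriers held 842 CPM (661 to 1057). Its 1 fibroblast carrier held 1232 (532 to 2427), an interval that holds the adult pulse value. No library of either labelling time was repeated, so whether this belongs to the time of labelling, to the animals or to the preparation cannot be told apart.

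**Figure D5:**
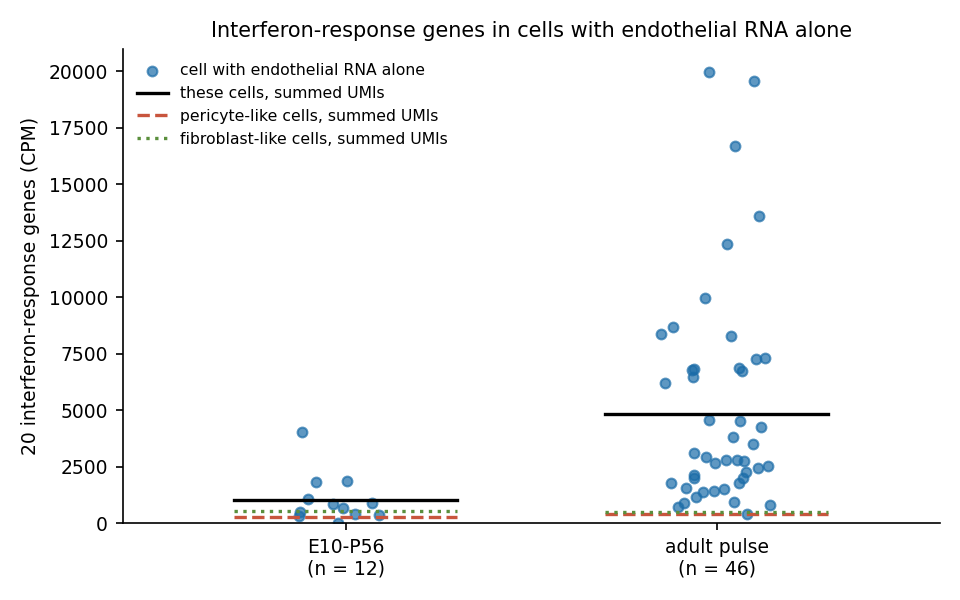
Summed level in CPM of 20 interferon-induced genes in each cell with endothelial RNA alone (12 of E10-P56, 46 of the adult pulse), with the level of their summed UMIs in black and those of pericyte-like (dashed) and fibroblast-like cells (dotted). The adult pulse cells range from 395 to 19976 CPM and the E10-P56 cells from 0 to 4023 CPM.

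*Cldn5*, the main tight junction gene of endothelium, was also uneven. It stood at 711 CPM (582 to 860) in 31 of 46 adult pulse cells with endothelial RNA alone and at 60.9 CPM (7.37 to 220) in 2 of 12 E10-P56 cells, and the intervals did not overlap. Over all E10-P56 endothelial cells it was at 118 CPM, against 442 in the adult pulse. The E10-P56 mural carriers held 13 of its 16 UMIs, at 148 CPM (78.8 to 253) in 5 of 15 cells, above the level of cells with endothelial RNA alone, although their level of the 20 endothelial genes was lower, and those 2 intervals for *Cldn5* overlapped. Other junction genes went different ways. *Pecam1*, a gene of the rule, was also lower in E10-P56, at 700 CPM (444 to 1050) against 1275 (1100 to 1470), *Jam2* was at 1156 (818 to 1587) against 698 (570 to 846), and *Esam* at 822 against 846. *Rbp7*, a retinol carrier of capillary and arterial endothelium, was at 188 CPM (125 to 272) in the adult pulse, where 10 of 46 cells had it, and at 0 UMIs (0 to 112 CPM) in E10-P56. Of its 28 UMIs 14 lay in the 4 cells with the most arterial UMIs, and without them it was at 105 CPM, within the E10-P56 interval. In the other direction *Ankrd11* was at 609 (E10-P56) and 94.0 CPM (adult pulse), and *Col3a1*, a fibrillar collagen gene of fibroblasts, at 974 and 175. These genes were chosen after their values had been seen.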

How the data were processed

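Raw UMI counts per gene and barcode were used as the authors deposited them, made with Cell Ranger (per the file headers 5.0.0 in E10-P56, 3.0.2 in the adult pulse) on a modified mm10 genome, without normalisation. Both libraries list 28001 features, of which 27645 have their identifier in GENCODE M21, the source of gene positions. The methods name the v3 kit of 10x Chromium for adult muscle taken at P56, and the labels v2 or v3 for both libraries. Which of them was used for the adult pulse, which the study takes from earlier work, is not given in the sources used here.

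Barcodes with fewer than 1500 UMIs (1310 in E10-P56, 465 in the adult pulse) or over 10% mitochondrial UMIs (a further 839 and 163) were left out, and 6087 and 8567 cells kept. No doublets were removed. Scrublet scores came from scanpy 1.11.5. The members, the gene lists and the tests were chosen with earlier results of these data known, so no list is independent evidence. Clusters were formed with leidenalg 0.10.2 and python-igraph 0.11.9 at a resolution of 0.5, over 20 neighbours and 30 principal components of 2000 variable genes that left out the genes of the lists. A cluster was named where at least 3 of its markers (5 for fibroblasts) were found in at least 10% of its cells with a log2 fold of at least 1. The number for fibroblasts, and the need for 1 own leading marker in all other types, were set after a first run. Levels are CPM of summed UMIs with exact Poisson intervals, and shares carry exact Clopper-Pearson intervals, both at 95%. Ratios had 5 CPM added to both sides and were taken for genes with at least 20 UMIs. With 1 library per group there was no test and no p-value.

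Named genes were, per library, the 10 with the largest ratio to other kept cells and at least 50 UMIs, the 5 with the largest ratio between the libraries in each direction, and the most abundant of each list. Other genes named were chosen after their values were seen. The classes by other-lineage RNA and the interferon list were likewise added after the data had been seen. Promoters are RefSeq sequences on GRCm38.p6. Other settings were run for the number of UMIs required, the mitochondrial share, the number of rule genes, depth, doublets, the base of CPM, averaging over cells, the cells counted and the minimum for a gene. The ratio step was tested on simulated data. For genes changed 4-fold the median ratio was 3.55 raised and 4.55 lowered over 1067 genes simulated on E10-P56, and 3.56 and 4.14 over 2289 genes on the adult pulse. Of unchanged genes 0% passed 4-fold upward, and the downward direction was not counted. The simulated counts were summed and independent, so the 0% does not cover genes whose UMIs lie in 1 cell. Python 3.11.15, numpy 2.4.6, scipy 1.17.1, pandas 2.3.3, scikit-learn 1.9.0 and matplotlib 3.10.9 were used.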

Additional observations from a re-analysis of the deposited data

Results flagged for a closer look

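The summed level of *Abcc9*, *Kcnj8* and *Art3* went in opposite directions against the rest of each library. It was 1681 CPM in the E10-P56 endothelial cells against 193.7 CPM in its other kept cells, and 103.6 CPM in the adult pulse endothelial cells against 172.6 CPM in its other kept cells. The genes did not all move alike. In E10-P56 all 3 were at least 4-fold higher. In the adult pulse *Abcc9* (20.7 against 56.5 CPM) and *Kcnj8* (6.91 against 60.5 CPM) were lower. *Art3*, the only gene of the 3 with at least 20 UMIs there, was higher, with a log2 ratio of 0.416. With 1 library each, the difference between the libraries was not tested. The filters left out 10 adult pulse barcodes that had at least 3 of the 5 rule genes, all of them under 1500 UMIs with a median of 937.5, and 3 E10-P56 barcodes. The added sequence SSM2GFP, which no comparison used, had 411 UMIs in kept cells of E10-P56 and 1001 in those of the adult pulse. Of these, 0 and 4 UMIs lay in endothelial cells, none of them in cells with endothelial RNA alone.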

How the results depend on the processing

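Of 60 planned values over 4 results and both libraries, 48 moved by less than their counting interval, or at most 1.5-fold for counts, and 12 moved more. With a minimum of 3000 UMIs, 19 E10-P56 and 31 adult pulse endothelial cells remained in number, 182 genes in place of 273 were at least 4-fold higher in the adult pulse (1.5-fold fewer), the pericyte genes stood at 1983 CPM in E10-P56 and tdTomato at 2210 CPM in the adult pulse. With the rule applied to cells thinned to 1500 UMIs, E10-P56 had 18 cells, 1448 CPM of the pericyte genes, 1569 CPM of tdTomato and 124 genes at least 4-fold higher (of 567 with enough UMIs), and the adult pulse had 63.9 CPM of the pericyte genes. Within the cluster led by endothelial genes, the E10-P56 pericyte genes stood at 1367 CPM. Leaving out the top 5% by doublet score, they stood at 47.9 CPM in the adult pulse, and with CPM taken without mitochondrial and ribosomal protein genes its tdTomato level was 2712 CPM. After the data had been seen, the cells with other-lineage RNA were left out. This left 12 E10-P56 cells with 0 CPM of the pericyte genes, 1461 CPM of tdTomato and 66 genes at least 4-fold higher (of 233), and 53.7 CPM of the pericyte genes in the adult pulse. At a limit of 5% in place of 10%, 10 and 38 cells were left, and the adult pulse had 4 mural and 15 fibroblast carriers in place of 2 and 9. Between the cells with endothelial RNA alone, the same CPM minimum in both libraries gave 4 genes at least 4-fold higher in the adult pulse in place of 72, from 260 genes in place of 1364. The 12 and 46 cells with endothelial RNA alone, at 32864 and 149004 UMIs, set the depth of every vessel-type level. No paired analysis was possible because each group has 1 library and no test was made.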
